A study of Mus musculus with 27 samples.

Results

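DNA junctions made during antibody class switching were compared between stimulated CH12F3 cells that lack DNA ligase 4 and the WT cells. The comparison took every junction of 9 of the 27 libraries, chosen by their genotype labels. These were 3 WT libraries, 3 libraries of Ligase4-/- clone1 and 3 libraries of Ligase4-/- clone2, with 71203 of the 193201 deposited junctions. CH12F3, a B lymphoma line of the mouse, makes IgM and turns to IgA on stimulation. All 9 libraries came from cells stimulated for 72 h with 20 ng/mL IL-4, 1 ng/mL TGFβ and αCD40, whose dose the labels give as 1 mg/mL. WT stands for 1 parental line. One Ligase4-/- clone was made from that line and the other came from another laboratory, so each clone is a single line with its own history. The submitters describe 3 biological replicates per clone, and the labels do not say whether these were separate cultures, so a p-value here measures the spread between libraries. The tables hold junctions only, and the loss of ligase 4 itself was not measured in them.

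Class switch recombination joins a break in the Sμ switch region to a break in a downstream switch region, which in these cells is mostly Sα. The enzyme AID starts the breaks by deaminating cytosines, often within the motif AGCT. Classical non-homologous end joining seals the ends, and DNA ligase 4, working with XRCC4, performs its ligation step. Cells without it can still join ends by alternative pathways, which are known for their use of microhomology, a short run of bases that both ends share. LAM-HTGTS reads junctions from one fixed end, the bait, here the Imu side of the IgH locus. Each read holds the bait up to its last base and then the prey, the DNA it was joined to.

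The bait is shown because several differences depended on where in it the junction fell. It is read 5′ to 3′ on the minus strand at chr12:114664780-114664909 of the mm9 build, from the Imu region upstream of Sμ, and the capitals mark its 2 AGCT motifs.
bait: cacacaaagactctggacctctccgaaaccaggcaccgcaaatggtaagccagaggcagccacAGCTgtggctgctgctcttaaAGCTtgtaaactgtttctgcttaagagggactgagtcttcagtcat
bait, ends 74 to 85: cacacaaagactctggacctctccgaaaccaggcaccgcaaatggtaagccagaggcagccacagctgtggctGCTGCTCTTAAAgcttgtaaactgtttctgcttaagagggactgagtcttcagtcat
Bait positions are counted from 1 at the left end of this sequence. In the repeat of the sequence, capitals mark positions 74 to 85, where WT junctions often ended and Ligase4-/- junctions seldom did. The letters are the most frequent base of the aligned bait, which made up at least 98.8% of reads at every position.

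The next sequences come from the Sα region, also on the minus strand with AGCT in capitals. They are 200-base parts of 500-base bins, 2 of which held a smaller share and 1 a larger share of deletional joins in Ligase4-/-. Joins were counted per bin and not per printed stretch.
chr12:114500001-114500200, part of the most frequent WT bin: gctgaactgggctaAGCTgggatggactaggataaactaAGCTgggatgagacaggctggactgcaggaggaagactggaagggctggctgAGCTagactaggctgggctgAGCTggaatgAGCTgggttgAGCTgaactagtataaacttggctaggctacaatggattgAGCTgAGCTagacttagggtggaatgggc
chr12:114500601-114500800, part of a bin with a smaller Ligase4-/- share: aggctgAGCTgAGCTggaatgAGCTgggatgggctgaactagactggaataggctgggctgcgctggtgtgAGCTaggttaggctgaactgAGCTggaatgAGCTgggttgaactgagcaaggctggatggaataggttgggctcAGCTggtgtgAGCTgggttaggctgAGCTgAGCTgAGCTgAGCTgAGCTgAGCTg
chr12:114499001-114499200, part of a bin with a larger Ligase4-/- share: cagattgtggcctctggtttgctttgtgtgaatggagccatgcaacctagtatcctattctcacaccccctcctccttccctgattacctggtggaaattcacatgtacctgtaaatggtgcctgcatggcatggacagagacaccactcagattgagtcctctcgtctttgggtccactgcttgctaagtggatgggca
The stretch from 114500001 holds 8 AGCT motifs of the 21 in its bin, that from 114500601 14 of 27 and that from 114499001 0 of 6. The stretch from 114500601 was picked within its bin for its many AGCT motifs. The other stretches begin at the start coordinate of their bins. The printed stretches are therefore not an even comparison, and the counts of whole bins are the ones to compare. All printed stretches were pieced together from the 20 bases that the deposited data give around each prey break.

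Libraries held 3610 to 4010 junctions in WT, 10583 to 14524 in clone1 and 5811 to 7827 in clone2, so WT is the shallowest group. Between 0.502% and 1.00% of the lines of a library repeated another line. The 3 WT libraries were sequenced in 1 run, which holds none of the Ligase4-/- libraries, and the effects of run and of genotype cannot be told apart. The clone1 libraries came from 3 runs and the clone2 libraries from 1 other run, so differences between the clones cannot be told apart from run either. Library 2 of clone2 lay nearest to WT in 9 of the 27 planned measures called below, and library 2 of clone1 in 8. Among the 35 called measures that were added after the data were seen, these counts were 17 and 5. Some results that move with library 2 of clone2 are also given without it, and its flagged values are listed near the end. Shares were compared with a two-sided exact permutation test over the 84 ways to split 6 libraries against 3, whose smallest p is 0.0119. Of 38 planned measures 27 (71.1%) passed an adjusted p of 0.05 (Benjamini-Hochberg over the 38), and of 42 measures added after the data were seen 35 (83.3%) passed. The planned measures, too, were chosen with earlier results of these data known, so neither count is independent support. The called measures had adjusted p = 0.0174 (planned) or 0.0147 (added) in this exact permutation test unless another value is given. Intervals are 95% intervals from inverting that test, and means are given ± SD over 3 libraries.

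Without ligase 4, direct joins in Sα fell to 0.342 times the WT share, and the share of microhomology joins rose. The Sα window is the 20 kb of chromosome 12 from 114489501 to 114509500, and it held 6037 WT, 15467 clone1 and 8239 clone2 junctions. A direct join has bait and prey adjacent in the read, with no shared and no inserted base. Direct joins were 18.5%, 18.4% and 18.1% of the Sα junctions in the WT libraries, 6.25%, 5.67% and 6.08% in clone1, and 5.97%, 8.20% and 5.44% in clone2. The highest of the 6 Ligase4-/- libraries, library 2 of clone2, stayed far below the lowest WT library. The difference was -12.1 percentage points (interval -13.4 to -10.4), and -12.5 without that library.

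Microhomology joins made up 53.8%, 55.4% and 53.7% of Sα junctions in WT, 69.8%, 73.6% and 72.3% in clone1, and 77.9%, 72.4% and 75.3% in clone2. All 6 Ligase4-/- libraries lay above all WT libraries, by 19.3 points on average (14.5 to 24.2). Insertion joins, with read bases that neither alignment covers, fell by 7.21 points (interval -11.6 to -2.99). They were 27.4% ± 1.06 in WT, 22.1% ± 1.64 in clone1 and 18.2% ± 1.88 in clone2, and the loss was larger in clone2 (-9.12 points) than in clone1 (-5.30 points). The difference between the clones was not tested, since 3 libraries against 3 cannot give an exact p below 0.1. Among joins without an insertion, the difference in the direct share was -17.4 points.

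The shared stretch was also longer. Its mean length over microhomology joins was 2.33 ± 0.0361 bases in WT, 2.84 ± 0.0494 in clone1 and 2.85 ± 0.0532 in clone2, a difference of 0.513 bases (0.439 to 0.603). Joins with 1 shared base fell, from 18.6% to 19.4% of Sα junctions in WT to 10.1% to 12.5% in the Ligase4-/- libraries. Every longer class rose. Joins with 2 shared bases were 14.6% to 16.3% in WT and 21.2% to 25.7% without ligase 4, and those with 3 were 9.13% to 10.1% and 18.6% to 19.3%. Joins with 4 shared bases went from 6.04% to 6.62% up to 11.2% to 12.6%, and those with 5 or more from 3.77% to 4.31% up to 7.63% to 9.27%. No Ligase4-/- library overlapped WT in any of these 5 classes.

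Short insertions, as classed by the alignments, fell while longer ones did not pass the test. This class can also hold bait or prey bases with a changed base, and the letters of the insertions are compared further below. Insertions of 1 base went from 9.30% to 10.5% of Sα junctions in WT to 4.55% to 6.14% in the Ligase4-/- libraries, and those of 2 to 4 bases from 9.67% to 10.4% to 4.92% to 6.89%. Insertions of 5 to 20 bases were 5.91% ± 0.351 in WT, 6.87% ± 0.323 in clone1 and 5.43% ± 0.263 in clone2, so clone1 lay above WT and clone2 below its mean (exact permutation test, adjusted p = 0.698 for both clones together). Insertions over 20 bases were 1.65% ± 0.0675, 3.26% ± 1.43 and 1.93% ± 0.545 in the same order (adjusted p = 0.306, exact permutation test).

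**Figure D1:**
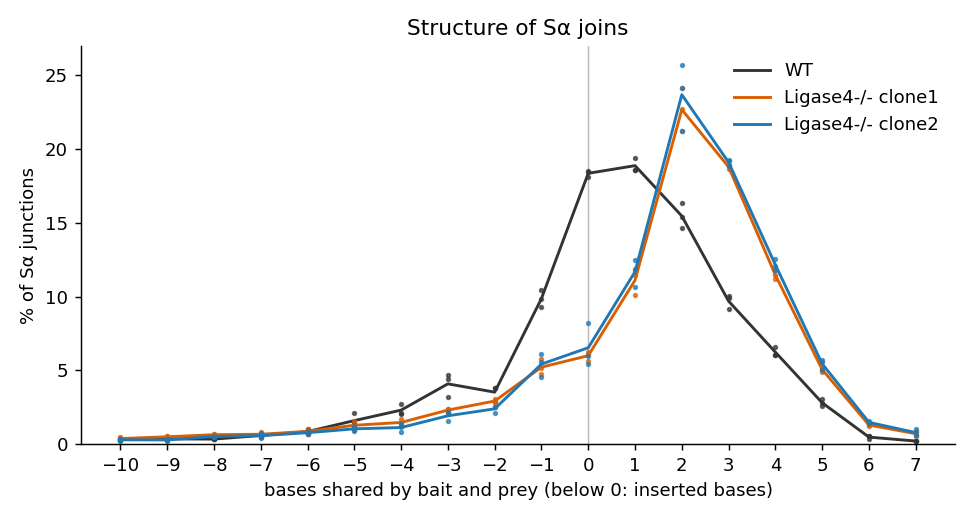
Share of Sα junctions (y axis, %) by the number of bases that bait and prey share (x axis, bases, with inserted bases below 0) for WT, Ligase4-/- clone1 and Ligase4-/- clone2. Lines join the means of 3 libraries and dots are the libraries. WT peaks at 0 and 1 shared bases, while both clones peak at 2 and hold 18.8% and 19.1% at 3.

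The rise covered most shared sequences longer than 1 base. Of 65 microhomology sequences with enough junctions to test, 51 (78.5%) were called, of which 46 (70.8% of all) took a larger share of Sα junctions in Ligase4-/- and 5 (7.69%) a smaller one (limma on log2 shares, adjusted p under 0.05). All 4 single bases were lower. Among those of 2 bases 9 of 14 were higher, among those of 3 bases 18 of 23, among those of 4 bases 17 of 18 and among those of 5 bases 2 of 6. Only GCTG, of 4 bases, was lower among these longer ones.

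Sequences frequent in switch DNA showed both directions. The single base G was 7.25%, 6.04% and 7.36% of Sα junctions in WT, 4.05%, 4.58% and 4.63% in clone1, and 4.67%, 4.49% and 3.83% in clone2 (log2 difference -0.65 ± 0.0861 SE, limma adjusted p = 2.96e-06). The single base A fell by 1.12 on the log2 scale, from a mean of 4.89% to 2.21% and 2.29%. The pair GC was 3.29%, 3.42% and 2.47% in WT, 4.79%, 5.07% and 4.83% in clone1 and 5.16%, 4.68% and 4.57% in clone2, with a log2 difference of 0.67. WT lay below both clones in each of its libraries for GC and above them for G.

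Among sequences with a mean share of at least 1% in either genotype, CC and CAG rose most. CC was 0.435%, 0.315% and 0.484% in WT, 1.29%, 1.38% and 1.28% in clone1, and 2.15%, 1.76% and 1.61% in clone2 (log2 difference 1.86 ± 0.193 SE, limma adjusted p = 1.76e-07). CAG was 0.338%, 0.368% and 0.775% in WT and 1.39% to 1.91% in the Ligase4-/- libraries (log2 difference 1.77). GT, TGG, GGC and CTG were also higher, by 1.22, 1.02, 1.01 and 0.74 on the log2 scale. GCTG, a core word of switch repeats, went the other way, with 1.93%, 2.84% and 1.94% in WT, 1.43%, 1.27% and 1.41% in clone1, and 0.934%, 1.80% and 1.48% in clone2 (log2 difference -0.69). GCT did not pass the test (limma adjusted p = 0.2). Some rarer sequences rose more. CCAG, named after its values were seen, had 0.0484% to 0.105% in WT and 0.726% to 1.10% without ligase 4 (log2 difference 3.11).

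Sα breaks spread outwards without ligase 4. For each orientation the spread was measured on a single side, away from the bait for deletional and towards it for inversional joins. By orientation, the opposite sides were compared only in single bins. In a deletional join the prey runs as in a productive switch, and in an inversional join it is turned around. The core is the 6161 bases from 114496668 to 114502828, the shortest stretch that holds 90% of the Sα breaks of the series with all 9 of its lines weighted equally. Deletional joins were 95.9%, 94.8% and 95.3% of Sα junctions in WT, 83.0%, 84.6% and 83.8% in clone1, and 84.7%, 87.2% and 86.5% in clone2. All Ligase4-/- libraries lay below WT, by -10.4 points (interval -12.9 to -7.76).

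Joins outside the core were 3.24%, 3.10% and 3.78% of Sα junctions in WT, 12.8%, 10.3% and 11.4% in clone1, and 14.2%, 10.3% and 14.3% in clone2, a difference of 8.82 points (6.52 to 11.1). Deletional joins past the core edge farther from the bait rose from 2.72% ± 0.342 of deletional joins in WT to 7.67% ± 0.718 in clone1 and 9.92% ± 1.82 in clone2. Inversional joins past the edge nearer the bait were 1.18%, 0% and 3.09% of inversional joins in WT, 19.5%, 13.8% and 17.1% in clone1, and 19.4%, 15.2% and 18.8% in clone2. The difference was 15.9 points (12.1 to 19.4), and both clones stood clear of WT. The WT values rest on 4 of 281 inversional joins, against 413 of 2492 in clone1 and 204 of 1140 in clone2, and the 0 of 99 in WT library 2 allows a share of up to 3.03%. The median distance of a break from the core centre was 928 ± 38.3 bases in WT, 997 ± 53 in clone1 and 1202 ± 24.2 in clone2, which did not pass (adjusted p = 0.0646, exact permutation test). It passed with each library thinned to 3610 junctions (183 bases, exact permutation test, adjusted p = 0.0323) and without library 2 of clone1 (204 bases, adjusted p = 0.0485, exact permutation test).

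Outside the core, too, direct joins were fewer. There they were 20.2% ± 0.847 in WT, 6.90% ± 0.846 in clone1 and 4.48% ± 0.565 in clone2. Inversional joins showed the same difference, with 15.7% ± 2.92, 5.91% ± 0.631 and 5.02% ± 0.959 direct. Deletional joins had 18.5% ± 0.0721, 6.02% ± 0.244 and 6.76% ± 1.70. Each of these 3 classes was called.

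**Figure D2:**
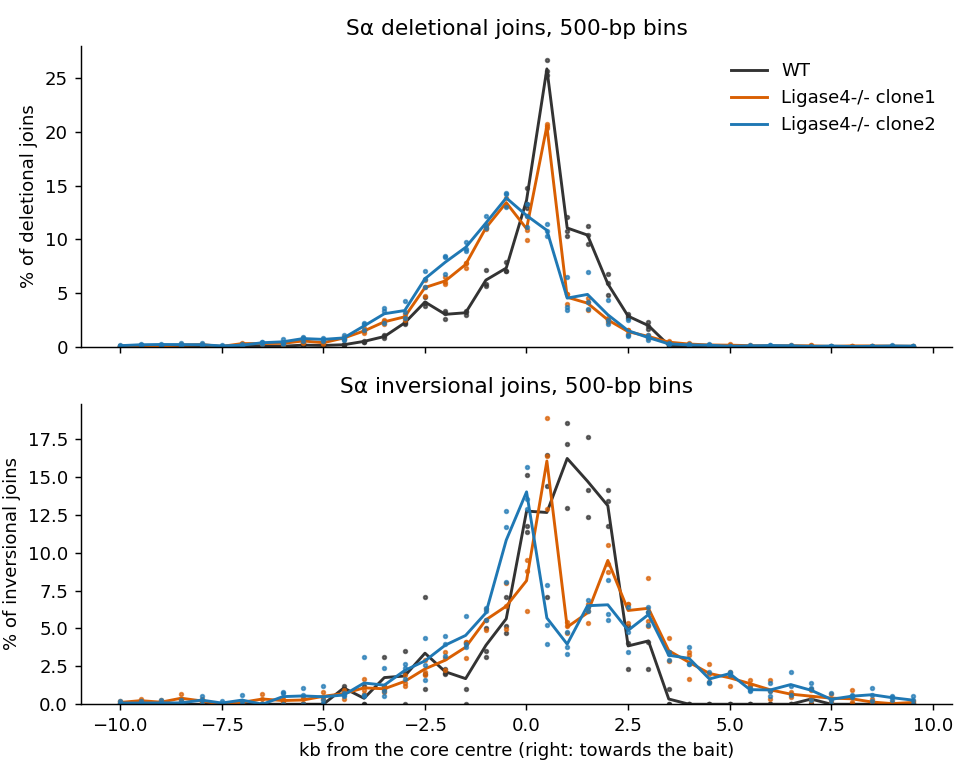
Share of deletional (top) and inversional (bottom) Sα joins (y axes, % of joins of that orientation) in 500-bp bins by distance from the core centre (x axis, kb, with the bait to the right). Lines are means of 3 libraries and dots the libraries of WT, Ligase4-/- clone1 and Ligase4-/- clone2. Deletional joins of the clones lie more to the left of the centre than WT, and their inversional joins extend to the right where WT has almost none.

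In 500-bp bins the joins moved within the core as well. Of 41 bins with enough junctions, 28 (68.3%) were called, of which 19 (46.3% of all) held a larger and 9 (22%) a smaller share of the joins of their orientation in Ligase4-/- (limma on log2 shares). The deletional bin starting at 114500001, the most frequent in WT, held 26.7%, 25.7% and 25.3% of deletional joins in WT, 20.6%, 20.8% and 20.4% in clone1, and 10.8%, 11.4% and 10.3% in clone2 (log2 difference -0.79 ± 0.265 SE, limma adjusted p = 0.0205). Both clones were below WT here, and clone2 was below clone1 in every library. The 2 bins nearer the bait, starting at 114500501 and 114501001, fell by 1.31 and 1.26 on the log2 scale.

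Of 22 deletional bins tested, 13 were higher, most of them farther from the bait, 6 lower and 3 not called. The neighbour of the most frequent bin on the far side, starting at 114499501, held 13.7% in WT, 11% in clone1 and 12.2% in clone2 and was not called (limma adjusted p = 0.0995). The bin starting at 114499001 held 7.02% to 7.86% of deletional joins in WT and 13.0% to 14.3% in the Ligase4-/- libraries (log2 difference 0.90). The bin starting at 114498001 rose from a mean of 3.16% to 7.65% in clone1 and 9.25% in clone2 (log2 difference 1.41 ± 0.13 SE, limma adjusted p = 1.9e-05). The deletional bin at 114495501, outside the core, rose from 0.485% to 1.46% and 1.93%. On the bait side the bin at 114503001 was also higher, with 0.121% in WT, 0.414% in clone1 and 0.255% in clone2, while those at 114496501 (limma adjusted p = 0.0535) and 114492501 (limma adjusted p = 0.139) were not called.

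Of 19 inversional bins tested, 6 were higher, 3 lower and 10 not called. The 3 lower bins lay on the bait side of the centre, and of the 6 higher bins 4 lay farther towards the bait and 2, starting at 114498001 and 114498501, on the far side. With the clone as a random block neither of these 2 passed (limma adjusted p = 0.0514 for both). The bin at 114498001 rests on 5 WT joins, with 0%, 4.04% and 1.03% in WT and 3.07% to 5.85% in Ligase4-/-. The inversional bin at 114500501 held a mean of 16.2% in WT, 5.09% in clone1 and 3.97% in clone2 (log2 difference -1.85), and the one at 114501001 held 14.7%, 6.03% and 6.50%. The central bin at 114500001 held 12.7% in WT, 16.1% in clone1 and 5.69% in clone2, with the clones on opposite sides of WT (limma adjusted p = 0.473), and the one at 114499501 was not called either (limma adjusted p = 0.334). Past the edge nearer the bait, the bin at 114503001 held 0.344%, 3.54% and 3.23%. The bins at 114503501, 114504001 and 114504501 held none of the 281 WT inversional joins, which allows up to 1.07% over the 3 WT libraries. Against that limit they were at least 2.71-fold, 1.73-fold and 1.76-fold higher in Ligase4-/-.

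Fewer breaks lay at an AGCT motif without ligase 4. An AGCT lay within the 10 bases on either side of the Sα break in 48.6%, 50.3% and 51.1% of WT junctions, 31.7%, 32.3% and 32.2% of clone1 junctions, and 25.8%, 31.5% and 25.9% of clone2 junctions. Both clones were below every WT library, by -20.1 points (interval -25.8 to -14.4). A break is placed just before the first aligned prey base. In a microhomology join the shared bases align to both sides, so the break cannot be placed within the shared run. These runs were longer and more frequent in Ligase4-/-, so the placement is not equal between genotypes. Direct joins share no base. An AGCT lay near 46.9% ± 2.24 of them in WT, 26.3% ± 1.08 in clone1 and 31.6% ± 3.39 in clone2. For comparison, 30.0% of all 20-base windows in the core hold an AGCT (140 motifs in the core, searched on 1 strand because AGCT reads the same on both). Within the core, the deletional breaks had an AGCT in 50.2% to 52.2% of WT, 33.6% to 33.9% of clone1 and 27.9% to 33.9% of clone2 junctions. The inversional core breaks had one in 43.2%, 48.5% and 60.7% of WT, 40.3% to 42.7% of clone1 and 32.7% to 36.6% of clone2 junctions. Their difference was -12.8 points, and it no longer passed without WT library 3 (-7.82 points, exact permutation test, adjusted p = 0.0833) or with each library thinned to 3610 junctions (-11 points, adjusted p = 0.0833, exact permutation test).

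Part of this difference lay in which bin was joined. Across the 13 core bins, the share of windows with an AGCT and the log2 difference of deletional joins had Pearson's r = -0.859 and Spearman's rho = -0.828, a description over neighbouring bins of the same libraries. The bin starting at 114498001 has an AGCT in 10.6% of windows and gained joins, while the bin starting at 114500501 has one in 58.6% and lost them. The bins starting at 114499001 and 114499501 have it in 20.8% and 20.2% of windows, and the first gained joins while the second did not. With each bin weighted as in WT, an AGCT lay at 51.5% ± 0.948 of core deletional breaks in WT, 44.1% ± 1.11 in clone1 and 42.9% ± 1.21 in clone2. The weighted difference was -7.97 points (-10.2 to -5.96), against 51.4% ± 1.08, 33.7% ± 0.14 and 30.0% ± 3.34 without weights.

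Within the motif, 1 start of the aligned prey stood out. The aligned prey began with the T of AGCT, counted here as a break between AGC and T, in 9.61%, 8.67% and 9.64% of WT Sα junctions, 1.93%, 1.94% and 2.18% in clone1, and 1.99%, 3.63% and 1.32% in clone2. The difference was -7.14 points (-8.32 to -5.90), and library 2 of clone2 was the highest of the clones and still below WT. Among insertion joins, which share no bases, the same start made up 21.1%, 21.1% and 23.5% in WT and 3.02% to 9.83% in the Ligase4-/- libraries. An insertion join also counts here when the C of the prey's AGCT is read as a changed base, as in the prey example below. How many of these joins are of that kind was not counted. Outside the core an AGCT was near 9.09% ± 2.38 of WT, 10.5% ± 0.492 of clone1 and 8.31% ± 1.40 of clone2 breaks (exact permutation test, adjusted p = 0.821). Joins to other chromosomes had 9.60% ± 1.14, 10.3% ± 0.0639 and 8.48% ± 0.761 (adjusted p = 0.756, exact permutation test).

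**Figure D3:**
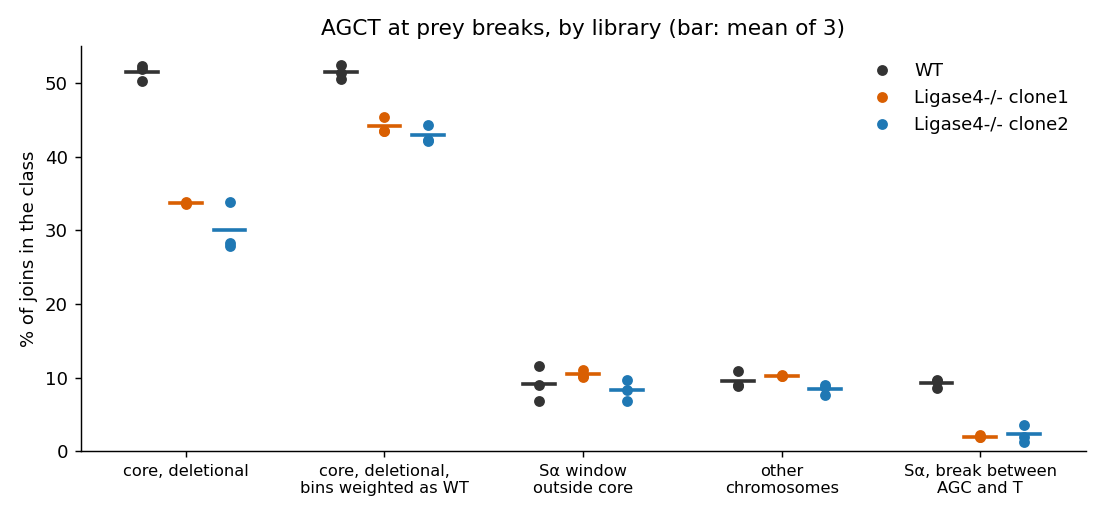
Share of joins (y axis, % of the class) with an AGCT at the prey break, or with the break between its AGC and T, for several classes of joins. Points are libraries and bars are means of 3 libraries for WT, Ligase4-/- clone1 and Ligase4-/- clone2. WT lies above both clones in the Sα core and in breaks between AGC and T, while the groups overlap outside the core and on other chromosomes.

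Single Sα positions were seldom frequent enough to test, and 3680 of the 6598 positions with a deletional junction had none in WT. WT held only 6037 of the 29743 Sα junctions, and 2258 of these positions had at most 1 junction in all 9 libraries. Of 4 tested positions 2 (50%) were lower in Ligase4-/- and 0 higher by limma, and 0 were called with the clone as a block or without library 1 or 3 of clone1 or any WT library. The 3 neighbouring positions with the most WT joins are printed with 10 bases before the first prey base, which is in capitals.
chr12:114500089-114500108, prey from 114500098: gctagactagGctgggctga
chr12:114500078-114500097, prey from 114500087: ctgggctgagCtggaatgag
chr12:114500077-114500096, prey from 114500086: tgggctgagcTggaatgagc
Position 114500098 took 1.16%, 0.998% and 1.16% of Sα junctions in WT, 0.0826%, 0.0727% and 0.0632% in clone1, and 1.02%, 0.749% and 0.966% in clone2. Clone2 overlapped WT there while clone1 was far lower, and the difference was not called (limma adjusted p = 0.08). Position 114500086, the T of an AGCT, took 0.483%, 0.525% and 0.484% in WT and 0% to 0.203% in the Ligase4-/- libraries (limma adjusted p = 0.0342). Position 114500087 took 0.821%, 0.788% and 0.727% in WT, 0.0275% to 0.0474% in clone1 and 0.257% to 0.447% in clone2.

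Short insertions differed in their letters as well as in number. Many WT insertions of 2 to 5 bases equalled the next bait bases with 1 base changed. By its letters such a join can be read as an insertion or as bait that runs on past a changed base. For a single join the table cannot tell these apart, and which reading holds was not tested. The following pairs show the bait of the reference and a WT read, with the compared bases in capitals.
end 64, reference: gaggcagccacaGCTgtggctgc
end 64, read: gaggcagccacaACTatgcatatatct
end 76, reference: gctgtggctgctGCTcttaaagc
end 76, read: gctgtggctgctACTcaggagcaggcc
end 85, reference: gctgctcttaaaGCTTgtaaactg
end 85, read: gctgctcttaaaACTTggaactgcccag
These hold the changes G65A, G77A and G86A, written as the bait's base, its bait position and the base read. The first insertion occurred in 21 WT and 4 Ligase4-/- Sα joins, the second in 19 and 5, and the third in 16 and 2, although the clones had more joins in all.

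Insertions of this kind were 5.36%, 4.68% and 5.18% of Sα junctions in WT, 1.65%, 1.09% and 1.25% in clone1, and 1.02%, 1.39% and 1.42% in clone2. Those whose change was G to A were 3.43%, 2.94% and 3.20% in WT, 0.138%, 0.182% and 0.205% in clone1, and 0.122%, 0.449% and 0.0966% in clone2. WT was higher in every library, and the G-to-A difference was -2.99 points (-3.25 to -2.75). G to A made up 62.9% of the 307 WT insertions equal to the bait but for 1 base, against 14.1% of 199 in clone1 and 17.0% of 106 in clone2. Matches of 2 bases arise easily by chance, and with 3 to 5 bases alone the shares were 3.13% ± 0.0957, 0.407% ± 0.0725 and 0.599% ± 0.214.

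The prey side showed the complementary change. Insertions equal to the prey bases just before the break, with 1 change, were 3.72%, 4.73% and 5.04% in WT, and 1.26% to 1.69% in the Ligase4-/- libraries. Those with C to T were 1.69%, 3.0% and 2.62% in WT and 0.162% to 0.337% in Ligase4-/-. A WT example at Sα position 114499902 reads as follows, and its insertion occurred in 4 WT and 0 Ligase4-/- joins.
prey, reference: ctaggcaAGCtgtgctgtct
prey, read: gctgtggctgctAGTtgtgctgtcg
Among insertions of 3 bases, 43.1% of 246 equalled the bait with 1 change in WT, against 11.5% of 357 in clone1 and 25.6% of 160 in clone2. For 5 bases the shares were 27.8% of 97, 1.56% of 192 and 0 of 87. For 6 bases they were 0 of 52, 0 of 137 and 0 of 64, and each length from 7 to 10 bases had 0 in all groups.

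Insertions of 2 to 10 bases that matched neither side moved in the opposite direction. They were 5.31%, 4.89% and 5.72% of Sα junctions in WT, 8.18%, 8.47% and 9.03% in clone1, and 6.30%, 6.33% and 7.15% in clone2. All Ligase4-/- libraries were above WT, by 2.27 points (0.613 to 3.90, exact permutation test, adjusted p = 0.0286). All insertions of 2 to 10 bases together fell from 14.0% ± 0.860 to 11.1% ± 0.430 and 8.98% ± 0.685. Single-base insertions that read as G to A against the bait fell from 3.43% ± 0.441 to 0.793% ± 0.1 and 0.748% ± 0.219. Among reads whose bait aligned on past position 86, an A there was found in 1.98% ± 0.290 of WT, 0.321% ± 0.0835 of clone1 and 0.356% ± 0.176 of clone2. At position 77 an A was found in 1.35% ± 0.324, 0.487% ± 0.0907 and 0.232% ± 0.226, which was called too. At position 65 the groups overlapped, with 0.946% ± 0.188, 0.553% ± 0.367 and 0.436% ± 0.237, and the difference did not pass (exact permutation test, adjusted p = 0.0556).

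The last aligned bait base moved as well. In a microhomology join it is the end of the shared run, so the break in the bait could lie before it. Of 79 bait positions tested, 53 (67.1%) were called, of which 31 (39.2% of all) took a larger share of Sα junctions in Ligase4-/- and 22 (27.8%) a smaller one (limma on log2 shares). All 12 positions from 74 to 85 were lower, a stretch bounded after the data were seen, which runs from between the bait's AGCT motifs to the first base of the second one and is printed in capitals in the repeat of the bait. Ends in it made up 21.1%, 21.3% and 21.8% of Sα junctions in WT, 3.25%, 3.07% and 3.44% in clone1, and 2.60%, 6.07% and 3.28% in clone2. The difference was -17.8 points (-19.5 to -15.8), and -18.3 to -17.6 with 1 library left out in turn.

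Ends farther out on both sides gained, and those just before the stretch lost. Ends up to position 44 were 9.64% to 12.4% in WT and 19.4% to 21.3% in Ligase4-/-, and ends from 86 on were 12.2% to 12.3% and 18.1% to 22.8%. In the first of these, 8 of 14 tested positions were higher and 1 lower, and in the second 14 of 24 were higher and 1 lower. Ends from 45 to 60 were 26.1% to 27.4% in WT and 29.8% to 32.8% in Ligase4-/-. From 61 to 73, where the first AGCT lies, ends were 28.2% to 29.0% in WT and 22.7% to 24.2% in Ligase4-/-, with 3 of 13 positions higher and 6 lower.

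Single ends within and beside this stretch differed widely. End 76 took 3.72%, 4.20% and 4.02% of Sα junctions in WT, 0.0826%, 0.0545% and 0.126% in clone1, and 0.0406%, 0.824% and 0.161% in clone2 (log2 difference -4.84 ± 0.596 SE, limma adjusted p = 2.7e-06). End 77 took 3.57%, 3.63% and 3.97% in WT and 0.0406% to 0.749% in Ligase4-/- (log2 difference -4.66). Library 2 of clone2 gave 22 of the 28 clone2 joins at end 76 and 20 of the 26 at end 77. End 64, the A of the first AGCT, took 5.75%, 6.57% and 6.10% in WT, 1.13%, 1.33% and 1.17% in clone1, and 1.14%, 1.5% and 1.71% in clone2 (log2 difference -2.21). End 57 did not pass (limma adjusted p = 0.768), while ends 31, 34, 35, 37 and 87 rose by 2.23, 1.54, 2.34, 2.15 and 2.09 on the log2 scale.

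The stretch from 74 to 85 was also seldom used when the bait joined near itself, while the difference was not called for other chromosomes. In the bait window it held 19.2%, 16.8% and 21.4% of WT joins, 2.79%, 2.75% and 2.85% in clone1, and 2.97%, 5.37% and 2.75% in clone2. In joins to other chromosomes it held 7.34% ± 2.25, 5.42% ± 2.39 and 7.16% ± 0.131, with a difference of -1.04 points (interval -4.52 to 2.47; exact permutation test, adjusted p = 0.525).

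**Figure D4:**
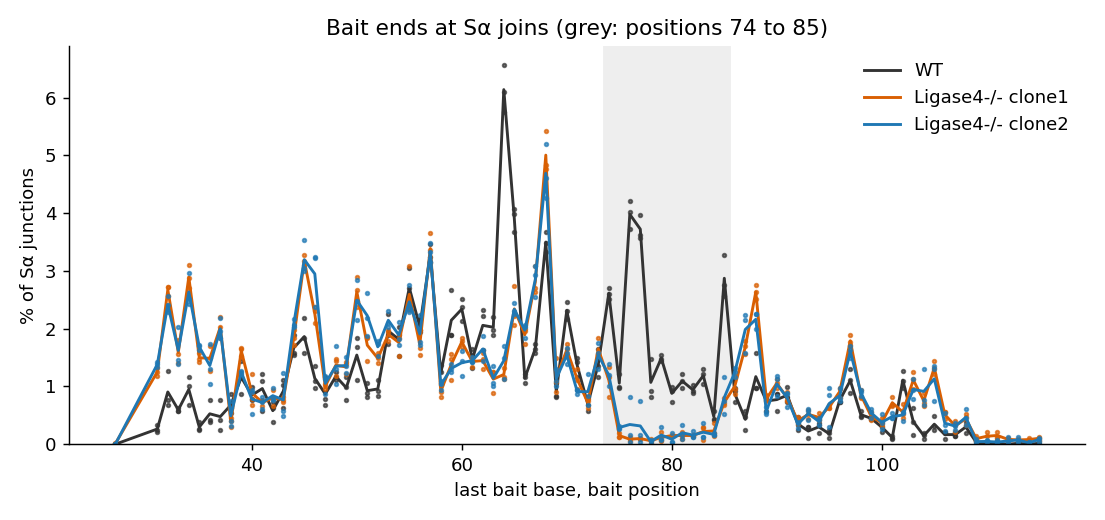
Share of Sα junctions (y axis, %) by the last bait base (x axis, bait position in bases) for WT, Ligase4-/- clone1 and Ligase4-/- clone2, with positions 74 to 85 in grey. Lines are means of 3 libraries and dots the libraries. WT has peaks at 64, 76 and 77 that are low in both clones, and the clones have more ends before 45 and after 85.

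Joins back to the neighbourhood of the bait took a similar share but a different shape. The bait window reaches 10 kb to each side of the bait. It held 26.0% ± 0.468 of all WT junctions, 26.5% ± 1.21 in clone1 and 28.8% ± 2.84 in clone2 (exact permutation test, adjusted p = 0.325). Deletional joins within 3 kb, the side on which Sμ lies, were 74.3%, 76.8% and 74.5% of bait-window junctions in WT, 44.2%, 45% and 46.4% in clone1, and 48.3%, 53.5% and 47.4% in clone2. All Ligase4-/- libraries were lower, by -27.8 points.

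Deletional joins beyond 3 kb were 0.488%, 0.435% and 0.573% in WT, 14.5%, 10.6% and 11.5% in clone1, and 18.2%, 15.3% and 17.1% in clone2. The ratio of the means was 29.1, and the difference 14.0 points (9.99 to 17.8). By distance, the share from 1 to 2 kb was 28.8% to 32.9% in WT and 9.02% to 16.8% in Ligase4-/-. From 2 to 3 kb the order turned, with 3.06% to 4.13% and 5.78% to 6.89%, and from 3 to 4 kb the shares were 0.0977% to 0.191% and 4.13% to 6.05%. With a limit of 1 kb in place of 3 kb the difference beyond it was -0.759 points, and with 5 kb it was 6.17 points and still called (exact permutation test, adjusted p = 0.0174), so the size and direction depend on the limit.

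**Figure D5:**
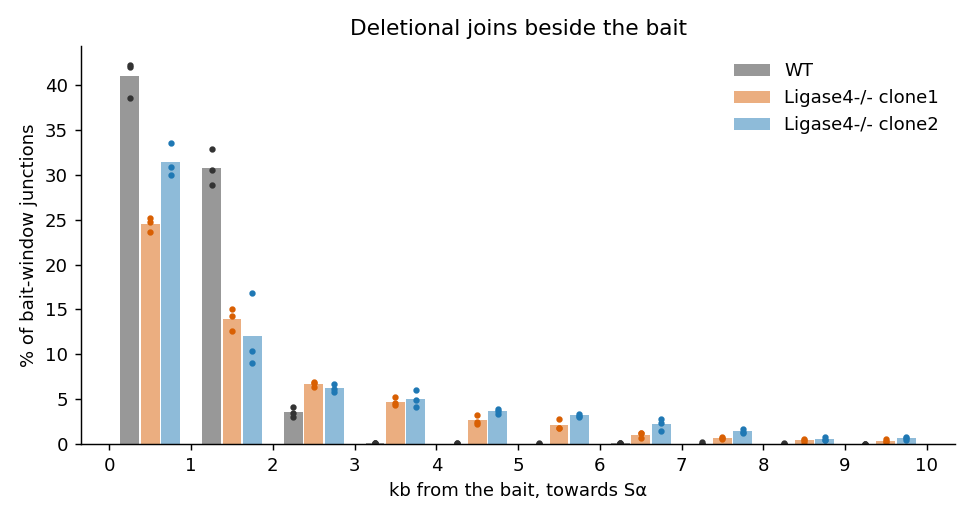
Deletional joins beside the bait (y axis, % of bait-window junctions) by distance from the bait towards Sα (x axis, kb) for WT, Ligase4-/- clone1 and Ligase4-/- clone2. Bars are means of 3 libraries and dots the libraries. WT ends almost completely at 3 kb, while both clones have joins in every kb out to 10 kb.

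Inversional joins in the bait window rose from 14.7%, 12.6% and 13.1% in WT to 37.3%, 39.8% and 38.1% in clone1 and 28.7%, 25.5% and 30.0% in clone2. The difference was 19.8 points (12.3 to 27.2), with 24.9 points in clone1 alone and 14.6 in clone2 alone, more than 1.5 times apart. On the side away from Sα they were 2.08% ± 0.748 in WT, 13.1% ± 0.902 in clone1 and 10.7% ± 1.09 in clone2. On the side towards Sα they were 11.4% ± 0.741, 24.9% ± 2.14 and 17.1% ± 1.26.

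The structure of bait-window joins changed as in Sα. Direct joins were 20.1% ± 1.11 in WT, 6.55% ± 0.158 in clone1 and 6.81% ± 1.72 in clone2. Microhomology joins were 53.4% ± 1.81, 67.0% ± 0.842 and 69.2% ± 3.10, with mean shared lengths of 2.36, 2.87 and 2.92 bases. Insertion joins were 26.5% ± 1.96, 26.5% ± 0.888 and 24.0% ± 1.39, which did not pass (exact permutation test, adjusted p = 0.398). With gaps of at most 20 bases the difference was -2.75 points and passed (exact permutation test, adjusted p = 0.0468). G-to-A insertions equal to the bait with 1 change were 1.66% to 2.67% in WT and 0.0745% to 0.398% without ligase 4.

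Fewer of the junctions outside the bait window reached Sα. The Sα share was 72.4%, 70.7% and 69.7% in WT, 46.0%, 56.7% and 60.4% in clone1, and 61.7%, 45.9% and 56.7% in clone2, a difference of -16.4 points (-26.5 to -6.19). The Ligase4-/- libraries ranged from 45.9% to 61.7% and did not overlap WT. Without library 2 of clone2 the difference was -14.6, and without library 3 of clone2 it no longer passed (-16.8 points, exact permutation test, adjusted p = 0.0503). The tables hold no count of unjoined bait or of cells, so a share says nothing of how often cells switched.

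Other places on chromosome 12 gained. The DNA between Sα and the bait, which holds the other constant-region genes, took 1.36%, 1.34% and 1.52% in WT and 3.49% to 5.51% in Ligase4-/- (difference 3.33 points). The 100 kb below Sα took 0.557% to 0.709% and 1.22% to 2.17%, and the part above the bait 0.439% to 0.699% and 1.15% to 2.43%. Above the bait clone1 exceeded WT by 1.54 points and clone2 by 0.866. The rest of the chromosome below took 1.83% ± 0.202 in WT, 4.22% ± 0.242 in clone1 and 2.84% ± 0.288 in clone2 (exact permutation test, adjusted p = 0.0335). Its difference was 2.39 points in clone1 and 1.01 in clone2. This last difference did not pass without any single one of 5 of the 6 Ligase4-/- libraries (adjusted p = 0.0503, exact permutation test) and passed only without library 2 of clone1 (adjusted p = 0.0485, exact permutation test). The share above the bait did not pass without library 3 of clone2 (1.23 points, adjusted p = 0.0503, exact permutation test).

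Between Sα and the bait, the 10 kb from 114599501 to 114609500, chosen after its values were seen, held 0.629%, 0.669% and 0.877% of junctions outside the bait window in WT, 1.86%, 2.18% and 2.38% in clone1, and 1.90%, 1.44% and 2.15% in clone2. Joins between the windows numbered 120 in WT, 1453 in clone1 and 657 in clone2. Of these 87.5%, 64.8% and 76.1% were deletional. Direct joins among them were 22.5%, 5.51% and 4.26%, and microhomology joins 53.3%, 75.1% and 78.5%, values pooled over libraries and not tested.

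Joins to other chromosomes were 22.9%, 25.1% and 26.0% of junctions outside the bait window in WT, 40.8%, 29.5% and 26.1% in clone1, and 27.6%, 45.1% and 31.8% in clone2. The groups did not overlap, but the lowest Ligase4-/- library lay next to the highest WT library and the difference was not called (exact permutation test, adjusted p = 0.109). Of 19 chromosomes tested, 0 (0%) took a different share of these joins by limma or by the exact permutation test, and 1, chromosome 8, had an unadjusted limma p under 0.05. Their direct share was 16.8% ± 1.24 in WT, 14.3% ± 1.68 in clone1 and 12.8% ± 4.31 in clone2 (adjusted p = 0.136, exact permutation test), so the change of structure seen in Sα was not called here. Microhomology joins were 52.6% ± 1.86, 61.9% ± 5.12 and 46.3% ± 8.72 of them (adjusted p = 0.892, exact permutation test), and insertion joins 30.6% ± 3.10, 23.8% ± 3.97 and 40.9% ± 13.0 (adjusted p = 0.893, exact permutation test). The clone means lay on opposite sides of WT in both, and library 1 of clone2 lay with clone1 against the WT mean. Unaligned stretches over 20 bases made up 24.2% ± 3.48, 11.5% ± 6.07 and 33.9% ± 13.7 of them, with 48.9% in library 2 of clone2. Among joins with gaps of at most 20 bases the difference in the direct share was -4.51 points and passed (exact permutation test, adjusted p = 0.0468).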

How the data were processed

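LAM-HTGTS junction tables were analysed from 9 libraries of stimulated CH12F3 cells (3 WT, 3 Ligase4-/- clone1, 3 Ligase4-/- clone2). The authors deposited 1 line per junction, with prey and bait alignment, read and orientation, per the file headers. Alignment to mm9 with Bowtie2 is named in the submitters' processing notes, while trimming, filtering and duplicate removal are described in no source used here. Per the labels, DNA was sonicated and AflII was used for blocking, and the AflII site lies at bait positions 104 to 109. Libraries were told apart by the tables' library column, whose names could not be tied to replicate numbers, so library numbers here follow the order of those names.

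Junctions were classed by how far the aligned bait and prey overlapped in the read (above 0 microhomology, 0 direct, below 0 insertion). Shares per library were compared with the exact permutation test (Python 3.11.15, scipy 1.17.1). Feature tables were tested with limma 3.58.1 in R 4.3.3 on log2 of the share, with an added count of 0.5, a mean of at least 5 junctions per library and, for tables of 10 or more features, the trend option. The limma step was tested on simulated data: for 79 bait end positions and a fold of 2, 88.1% of changed positions were recovered in 50 simulated sets. Of unchanged positions 1.63% were called. The simulated libraries held no difference between clones or runs, so these rates do not cover such differences. Limits at a count of 0 cover counting error only, and intervals the spread between libraries. In each table the text named from the 10 features with the highest mean share and, in each direction, up to 5 called features with the largest log2 difference among those with a mean share of at least 1% in either genotype; features named outside this rule were chosen after their values were seen. Members, measures and lists were chosen with earlier results of these data known. Alternatives covered repeated lines, gap length, equal depth, window and core limits, left-out libraries and clones, and count minimum.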

Additional observations from a re-analysis of the deposited data

Results flagged for a closer look

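Several values of a single library lay apart from the other 5 Ligase4-/- libraries by Dixon's gap test at the 95% level, which flags about 1 in 20 groups by chance. Most belonged to library 2 of clone2. Its direct share in Sα was 8.20% (the others 5.44% to 6.25%), and its direct share of deletional Sα joins was 8.72% (5.62% to 6.24%). Its share of breaks between AGC and T was 3.63% of Sα junctions (1.32% to 2.18%), 5.98% with bins weighted as in WT (2.94% to 4.05%) and 9.83% among insertion joins (3.02% to 4.83%). Insertions equal to the bait with a G-to-A change were 0.449% (0.0966% to 0.205%). Bait ends at 74 to 85 made up 6.07% of its Sα junctions (2.60% to 3.44%) and 5.37% of its bait-window junctions (2.75% to 2.97%). Its share of joins in the 100 kb below Sα was 1.22% (1.91% to 2.16%). All of these values lay on the WT side of the other Ligase4-/- libraries and outside the WT range. In library 1 of clone2, insertions equal to the prey with 1 change were 1.26% (1.53% to 1.69%).

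In another pair of measures every clone1 library lay above and every clone2 library below the WT mean, and the difference between clones was not tested. Insertions of 5 to 20 bases were 6.87% of Sα junctions in clone1 and 5.43% in clone2, with 5.91% in WT. An AGCT lay at 10.3% of breaks on other chromosomes in clone1 and 8.48% in clone2, with 9.60% in WT.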

How the results depend on the processing

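No paired analysis was possible because the library names in the tables cannot be tied to the replicate numbers of the labels. Leaving out 1 WT library left 0 of the 38 planned measures called. The smallest exact permutation p of 6 libraries against 2 is 0.0357. After adjustment over the 38 the smallest was 0.0522 without WT library 1 or 2 and 0.0543 without WT library 3. Of the added measures, adjusted among themselves, 122 results stayed the same, called or not, and 4 were no longer called. Leaving out 1 Ligase4-/- library left 24 to 28 planned measures called. No called planned difference turned its direction in any of these. With 1 library left out in turn, the Ligase4-/- minus WT differences ranged from -12.5 to -11.9 points for direct, 18.4 to 20.0 for microhomology and -7.96 to -6.39 for insertion joins in Sα. The mean shared length ranged from 0.493 to 0.526 bases, deletional joins from -10.8 to -9.98 points and joins outside the core from 8.40 to 9.21. The Sα share ranged from -17.8 to -14.6, bait-window deletional joins beyond 3 kb from 13.3 to 14.8 and bait-window inversional joins from 18.5 to 21.3. The count of Sα positions called lower ranged from 0 to 3. With a near limit of 1 kb the bait-window deletional difference beyond it was -0.759 points, because WT joins from 1 to 3 kb then count as beyond it.

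With a mean of at least 20 junctions, 9 bins were higher, 17 microhomology sequences higher and 14 bait ends lower, with fewer features tested. With 1000-bp bins 5 were lower. Without a minimum count 13 microhomology sequences were lower, and 3 Sα positions were higher and 695 lower, most with very few junctions. With the clone as a random block (added after the data were seen) 0 Sα positions were lower and 17 bins higher. Collapsing repeated lines, gaps of at most 20 bases, thinning each library to 3610 junctions, the core from WT alone and a 10 kb Sα window reversed no called planned measure. WT depth, 3610 to 4010 junctions, limits rare classes such as the 281 WT inversional Sα joins.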
